A study of Homo sapiens with 21 samples.

Results

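Genes of the dendritic program were followed, namely NAPSB, TIFAB, DCANP1, BCL11A, TCF4, IRF8, SPIB, RUNX2, LILRA4 and CLEC4C. They are 10 of the 58174 genes in the files, matched by Ensembl identifier with the version removed. The set was chosen by a rule that used the readout: NAPSB, TIFAB and DCANP1 were selected on their fold change after 72 h of UM171 against DMSO, as the strongest falls among such genes, and BCL11A was added by name. Every value of these genes that involves the DMSO libraries of parental cells is therefore given here as a description with its standard error (SE) and without a test. Tests were kept for comparisons between libraries that the rule did not use. For NAPSB, TIFAB and DCANP1 the choice still made a fall after 6 h likely. The fit of the time course also held the DMSO and 72 h libraries.

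Plasmacytoid dendritic cells are blood cells that sense viral nucleic acid through endosomal Toll-like receptors and release large amounts of type I interferon. Their identity rests on TCF4 (E2-2), a basic helix-loop-helix factor that binds E-box DNA, together with BCL11A, IRF8, SPIB and RUNX2, and it is opposed by the inhibitor ID2. LILRA4 (ILT7) and CLEC4C (BDCA-2) are receptors on the surface of these cells, while DCANP1 and TIFAB are genes known for expression in dendritic cells.

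RNA came from OCI-AML5, a human acute myeloid leukemia cell line, in 7 groups of 3 libraries. The labels give the dose as 500 nM, while the study's text gives a lower dose for these cells, so the dose behind the UM171 values is not settled here. Parental cells were labelled as kept in DMSO, the solvent, for 72 h, or in 500 nM UM171, a small molecule that expands human hematopoietic stem cells in culture, for 6, 24, 48 or 72 h. Cells expressing sgEPCR, a guide RNA against the gene of the endothelial protein C receptor (PROCR), were labelled as 24 h in DMSO or 24 h in 500 nM UM171. The labels call these cells both EPCR null and a knockdown, and the study's text speaks of several clones, but which library came from which clone is not given. The DMSO control of the parental cells was labelled 72 h and that of the sgEPCR cells 24 h, so the controls differ in time as well as in genotype. All cells were sorted before extraction, poly(A) RNA was used, and the sources do not say whether the 3 libraries of a group came from separate cultures. P-values therefore measure the spread between these libraries, which may be technical.

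Totals ranged from 24.3 to 51.5 M counts a library. Mitochondrial genes took 7.73 to 13.5% of counts in 19 libraries, but 35.9% in sgEPCR DMSO 1 and 32.2% in sgEPCR UM171 2, so sgEPCR results are also given without both. PROCR stood at 3.37, 4.30 and 3.38 TPM (a level of transcripts corrected for length and scaled to the same sum in each library) in DMSO, 48.5, 48.48 and 48.5 TPM in UM171 24 h, 2.30, 4.53 and 3.93 TPM in sgEPCR DMSO and 8.94, 4.23 and 8.41 TPM in sgEPCR UM171. A guide can disrupt the protein without removing the RNA, so these levels do not check the edit itself. LILRA4 and CLEC4C, which define plasmacytoid dendritic cells, never exceeded 1 count. Of 22 other genes of their surface and function, 8 stood at a mean of 1 TPM or more in DMSO, among them the receptor LILRB4 at 214.7 to 219.77 TPM, and 7 were under 3 counts in each DMSO library, PACSIN1 and SCT among them. The myeloid marker CD33 stood at 177.39, 177.05 and 178.67 TPM in DMSO. In bulk RNA, fewer cells of a type and less RNA per cell cannot be told apart.

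The locus of TIFAB and DCANP1 limits what their values mean. In GENCODE 44 on GRCh38, TIFAB (ENSG00000255833) lies on the minus strand of chromosome 5 at chr5:135444226-135452351, and DCANP1 (ENSG00000251380) on the same strand at chr5:135444214-135447348. Of the 3135 exonic bases of DCANP1, 3123 (99.6%) lie in the last exon of TIFAB, beyond its coding part and so in its 3′ UTR, and 12 are its own. TIFAB has 5867 exonic bases, of which 2744 are its own. The expected counts of both genes were fractions but summed to a whole number in every library, and RSEM gave both the same posterior SD. DCANP1 received 2.00 to 18.4% of that sum, and the posterior SD was 10.3 to 103% of the DCANP1 count. The files thus hold 1 well measured quantity at this locus, the sum, and a division of it that is poorly determined.

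**Figure D1:**
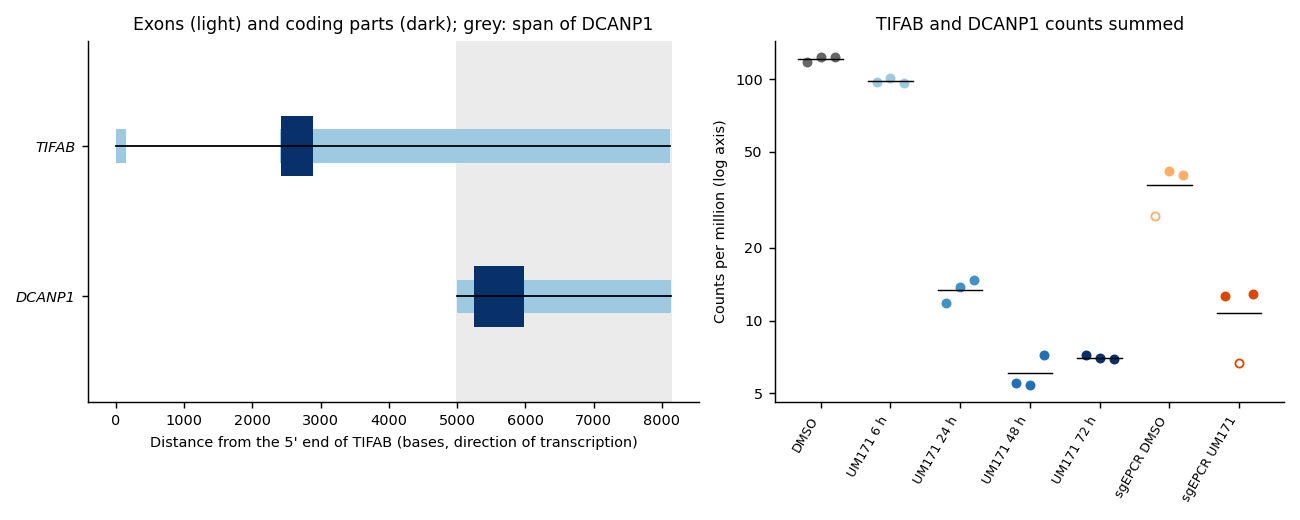
The left panel maps TIFAB and DCANP1 by distance in bases from the 5′ end of TIFAB, with exons in light blue and coding parts in dark blue. The right panel plots their summed counts, scaled by the library total to CPM, on a log axis for each of the 21 libraries, with a line at each group mean and open points for the 2 libraries rich in mitochondrial counts. The DCANP1 exon lies inside the last exon of TIFAB but for 12 bases, and all 9 libraries of UM171 24, 48 and 72 h sit below every library of DMSO and UM171 6 h.

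Promoter sequence from RefSeq (GRCh38.p14) was held for 7 of the 10 genes, as 22 windows from 250 bases before to 50 after a transcription start. NAPSB, DCANP1 and LILRA4 had no entry. Windows were searched on both strands for an ETS core (GAGGAA), an E-box (CANNTG), a RUNX site (TGTGGT) and an IRF pair (GAAA, NN and GAAA in a row), whose matches may overlap. These letters occur in 27.9%, 68.7%, 13.1% and 3.57% of all 35116 windows, and in 9, 16, 4 and 3 of the 22 windows of these genes. The windows below, each the one nearest the annotated 5′ end, are shown because TIFAB carries the lasting fall, BCL11A the difference between parental and sgEPCR cells, and RUNX2 levels that stood higher at each later time. Capitals mark the matches. TIFAB (chr5:135452302-135452601, minus strand) held 1 ETS core and 2 E-boxes, BCL11A (chr2:60553875-60554174, minus strand) 1 ETS core, and RUNX2 (chr6:45328080-45328379, plus strand) 4 RUNX sites and 2 E-boxes. A match is a description of the letters, not evidence that a factor binds.
TIFAB: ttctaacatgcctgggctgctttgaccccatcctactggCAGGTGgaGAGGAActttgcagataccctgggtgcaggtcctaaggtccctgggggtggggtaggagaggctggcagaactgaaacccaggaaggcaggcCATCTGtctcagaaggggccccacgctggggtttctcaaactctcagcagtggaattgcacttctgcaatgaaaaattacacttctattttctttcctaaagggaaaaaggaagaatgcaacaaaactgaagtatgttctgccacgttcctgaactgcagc
BCL11A: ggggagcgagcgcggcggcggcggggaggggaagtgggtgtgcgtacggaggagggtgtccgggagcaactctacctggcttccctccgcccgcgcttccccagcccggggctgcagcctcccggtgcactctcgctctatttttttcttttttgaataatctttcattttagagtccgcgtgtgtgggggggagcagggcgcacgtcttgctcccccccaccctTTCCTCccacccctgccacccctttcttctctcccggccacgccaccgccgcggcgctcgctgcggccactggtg
RUNX2: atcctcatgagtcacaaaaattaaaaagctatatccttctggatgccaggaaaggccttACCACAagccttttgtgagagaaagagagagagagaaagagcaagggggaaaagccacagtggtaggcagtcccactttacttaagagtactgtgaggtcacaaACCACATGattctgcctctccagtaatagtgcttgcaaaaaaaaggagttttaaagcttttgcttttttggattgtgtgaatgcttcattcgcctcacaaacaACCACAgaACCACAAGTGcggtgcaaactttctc

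NAPSB is a transcribed pseudogene of the aspartic protease napsin (ENSG00000131401, chr19:50333877-50344761, minus strand). It stood at 14.08, 15.73 and 14.85 TPM in DMSO, at 10.8, 12.23 and 12.83 TPM in UM171 6 h, and at 0.46, 0.32 and 0.41 TPM in UM171 24 h. At 48 h its levels were 0.19, 0.04 and 0.08 TPM, and at 72 h 0.21, 0.10 and 0.11 TPM. The lowest early library (10.8 TPM) was thus far above the highest library of 24 h or later (0.46 TPM). In counts, the late libraries are at the edge of detection: 1243 counts over the 3 DMSO libraries stand against 9 over those of 72 h, a depth-scaled ratio of 137 with an exact 95% interval of 71.8 to 300 that covers counting error only. The fitted log2 fold changes against DMSO were -0.50 (SE 0.10) at 6 h, -5.30 (SE 0.15) at 24 h, -7.06 (SE 0.19) at 48 h and -7.12 (SE 0.19) at 72 h.

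Between groups that the rule did not use, the decline of NAPSB passed the test. The choice of NAPSB for its fall at 72 h made a fall after 6 h likely, so the test is not independent of that choice. NAPSB passed the filter on low counts mainly through its high DMSO and 6 h libraries, so a call of higher was hardly possible. It fell by 4.80 on the log2 scale (SE 0.16) from 6 h to 24 h, with an edgeR adjusted p of 2.07e-13, and by 6.56 (SE 0.20) from 6 h to 48 h, with an adjusted p of 4.3e-14. In summed counts the second step was 881 against 9, a depth-scaled ratio of 110 (exact 95% interval 57.5 to 241). NAPSB lies wholly within NR1H2, which is transcribed from the opposite strand and codes for the liver X receptor beta. NR1H2 stood at 38.1, 36.24 and 38.93 TPM in DMSO and at 30.44, 31.02 and 32.55 TPM in UM171 24 h. The kit was stranded, but the strand setting of the counting is not given in the sources used here, so reads of the opposite strand cannot be told apart. Napsin A itself (NAPSA), the coding paralog whose reads can be confused with those of NAPSB, did not follow it from DMSO to 72 h. Its levels were 0.25, 0.32 and 0.13 TPM in DMSO and 0.90, 0.94 and 0.84 TPM in UM171 72 h. That was a log2 fold change of 1.45 (SE 0.35, edgeR adjusted p 0.00107), on 6.13 to 10.09 counts a DMSO library and 22 to 26 a 72 h library. NAPSA was at 1.25, 1.49 and 0.87 TPM at 6 h and at 0.46, 0.45 and 0.38 TPM at 24 h, so over that step it was lower too.

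**Figure D2:**
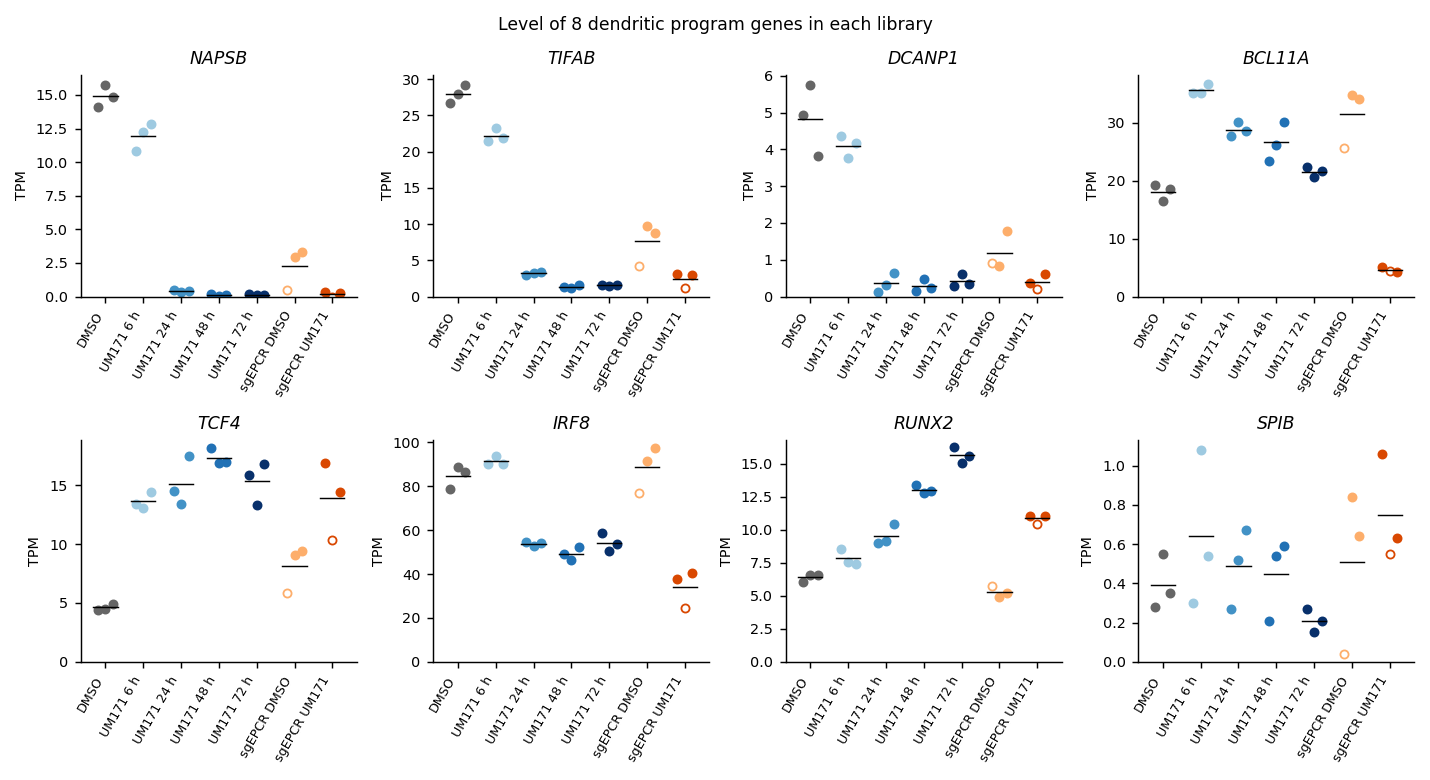
Each panel plots the level of 1 gene in TPM on a linear axis from 0, with 3 libraries in each of 7 groups, a line at the group mean and open points for sgEPCR DMSO 1 and sgEPCR UM171 2, the libraries rich in mitochondrial counts. NAPSB, TIFAB and DCANP1 drop between 6 h and 24 h, TCF4 and RUNX2 are higher in UM171 than in DMSO, and BCL11A is at 5.02 TPM or less only in the sgEPCR UM171 libraries.

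TIFAB, a relative of the TRAF-interacting protein TIFA that restrains signals through it, followed the same course from a higher level. It stood at 26.63, 27.88 and 29.22 TPM in DMSO, at 21.43, 23.23 and 21.84 TPM at 6 h, at 2.90, 3.30 and 3.35 TPM at 24 h, at 1.31, 1.12 and 1.53 TPM at 48 h and at 1.61, 1.43 and 1.57 TPM at 72 h. Every library of 24 h and later was below every library of DMSO and 6 h, and the 48 h and 72 h groups overlapped. DCANP1, named for its nuclear protein in dendritic cells, was listed at 4.92, 5.75 and 3.83 TPM in DMSO, 4.35, 3.77 and 4.18 TPM at 6 h and 0.11, 0.32 and 0.65 TPM at 24 h. Summed over both genes, the locus gave 118, 123 and 123 CPM (counts scaled by the library total, with no correction for length) in DMSO, 97.2, 101 and 96.6 at 6 h, 11.8, 13.8 and 14.7 at 24 h, 5.53, 5.39 and 7.22 at 48 h, and 7.18, 6.96 and 6.92 at 72 h.

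The fitted log2 fold change of the sum against DMSO was -0.49 (SE 0.07) at 6 h, -3.22 (SE 0.08) at 24 h, -4.35 (SE 0.09) at 48 h and -4.19 (SE 0.09) at 72 h. From 6 h to 24 h, between libraries that the rule did not use, the sum fell by 2.73 (SE 0.08), a 6.63-fold change with an edgeR adjusted p of 1.03e-13. Both genes were chosen for a fall at 72 h in the same course, and 6 h lay near DMSO. The choice thus made a fall after 6 h likely, and the test is not independent of it. Over the step to 48 h it fell by 3.86 (SE 0.09), 14.6-fold, with an adjusted p of 3.16e-15. An uncharacterized long noncoding RNA, ENSG00000249639, which overlaps the start of TIFAB on the opposite strand, was listed at 4.23, 3.74 and 5.58 TPM in DMSO and at 7.64, 6.56 and 6.53 TPM in UM171 24 h. TIFA, the coding relative of TIFAB on another chromosome, stood at 21.33, 23.82 and 23.7 TPM in DMSO and at 17.58, 19.26 and 18.18 TPM at 24 h, a difference of -0.28 (SE 0.09) that stayed under 2-fold.

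Of the transcription factors, IRF8 was the most abundant per length. IRF8 is needed for plasmacytoid and some conventional dendritic cells and for monocytes. Its levels were 78.95, 88.88 and 86.54 TPM in DMSO, 90.3, 93.84 and 90.19 TPM at 6 h, 54.56, 52.76 and 54.02 TPM at 24 h, 48.98, 46.47 and 52.2 TPM at 48 h and 58.54, 50.55 and 53.56 TPM at 72 h. Every DMSO and 6 h library was above every later one, and the 3 later groups overlapped in part. Against DMSO the log2 fold change was -0.08 (SE 0.04) at 6 h, a sign that turned with other scalings, and -0.65 (SE 0.04), -0.89 (SE 0.04) and -0.76 (SE 0.04) at 24, 48 and 72 h. IRF8 was lower at 24 h than at 6 h by 0.57 (SE 0.04, edgeR adjusted p 1.53e-09) and at 48 h by 0.81 (SE 0.04, adjusted p 1.67e-11), both under the 2-fold limit used for calls.

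TCF4, the E protein at the head of the program, went the other way. It stood at 4.41, 4.53 and 4.91 TPM in DMSO, at 13.4, 13.11 and 14.44 TPM at 6 h, at 14.48, 13.44 and 17.48 TPM at 24 h, at 18.18, 16.93 and 16.96 TPM at 48 h and at 15.9, 13.35 and 16.82 TPM at 72 h. Every UM171 library was above every DMSO library, and the 4 times of UM171 overlapped in part. The log2 fold change against DMSO was 1.53 (SE 0.06) at 6 h, 1.67 (SE 0.06) at 24 h, 2.02 (SE 0.06) at 48 h and 1.77 (SE 0.06) at 72 h. From 6 h on, TCF4 was higher by 0.14 (SE 0.06, edgeR adjusted p 0.0442) at 24 h, a difference that turned to -0.0167 (adjusted p 0.814) with total count scaling. It was higher by 0.49 (SE 0.06, edgeR adjusted p 7.55e-07) at 48 h, and both were under 2-fold. TCF4 has 90 transcripts in the files, and a level per gene does not say which start was used.

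RUNX2, a Runt domain factor that takes part in the late steps of plasmacytoid dendritic cells, stood higher at each later time. Its levels were 6.03, 6.54 and 6.59 TPM in DMSO, 8.56, 7.58 and 7.42 TPM at 6 h, 8.97, 9.11 and 10.42 TPM at 24 h, 13.41, 12.77 and 12.95 TPM at 48 h and 16.24, 15.03 and 15.6 TPM at 72 h. In TPM the 5 groups did not overlap. In TMM-scaled log2 CPM, DMSO (4.400, 4.474 and 4.451) and 6 h (4.728, 4.469 and 4.471) did, so their order depends on the scale. Against DMSO it was 0.12 (SE 0.07), 0.53 (SE 0.07), 0.99 (SE 0.07) and 1.19 (SE 0.07) higher on the log2 scale at 6, 24, 48 and 72 h. From 6 h it gained 0.41 (SE 0.07, edgeR adjusted p 6.9e-05) by 24 h and 0.87 (SE 0.07, adjusted p 7.58e-09) by 48 h, under 2-fold in both cases. SUPT3H, a subunit of a coactivator complex encoded on the opposite strand over the first part of RUNX2, stood at a mean of 3.10 TPM in DMSO and 10.3 TPM at 72 h.

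BCL11A, a zinc finger repressor needed for B cells and plasmacytoid dendritic cells, peaked early in parental cells. It stood at 19.25, 16.52 and 18.54 TPM in DMSO, at 35.22, 35.23 and 36.72 TPM at 6 h, at 27.65, 30.17 and 28.51 TPM at 24 h, at 23.37, 26.25 and 30.21 TPM at 48 h and at 22.4, 20.7 and 21.65 TPM at 72 h. All 12 UM171 libraries of parental cells were above the 3 DMSO libraries, and only the 24 h and 48 h groups overlapped. On the scale of the fit the difference from DMSO was 0.85 (SE 0.07) at 6 h, 0.85 (SE 0.07) at 24 h, 0.61 (SE 0.07) at 48 h and 0.27 (SE 0.07) at 72 h. In TPM the 24 h libraries were below those of 6 h, whereas in the TMM-scaled counts of the fit the difference was -0.0030 (SE 0.07), so an order between 6 h and 24 h depends on the scale. By 48 h BCL11A was lower by 0.24 (SE 0.07, edgeR adjusted p 0.005), under 2-fold.

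SPIB, an ETS factor of plasmacytoid dendritic and B cells, was close to the limit of detection with 3 to 33 counts a library. It was listed at 0.28, 0.55 and 0.35 TPM in DMSO and at 0.27, 0.15 and 0.21 TPM at 72 h, and its log2 fold change at 72 h was -1.08 (SE 0.32). From 6 h to 24 h the difference was -0.0013 (SE 0.27, edgeR adjusted p 0.997), so at this depth only a large change could have been detected. SPIB overlaps ENSG00000142539, a readthrough gene on the same strand, whose counts reached 10.9 in a DMSO library. LILRA4 was listed with 1 count in DMSO 3 and 1 in UM171 72 h 3, and CLEC4C with 1 count in UM171 6 h 2. The other libraries had 0 counts of both, which allows a level of up to 0.0582 to 0.124 CPM depending on the library. LILRA4 and CLEC4C did not pass the filter on low counts in any fit, and the other 8 genes did in each.

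**Figure D3:**
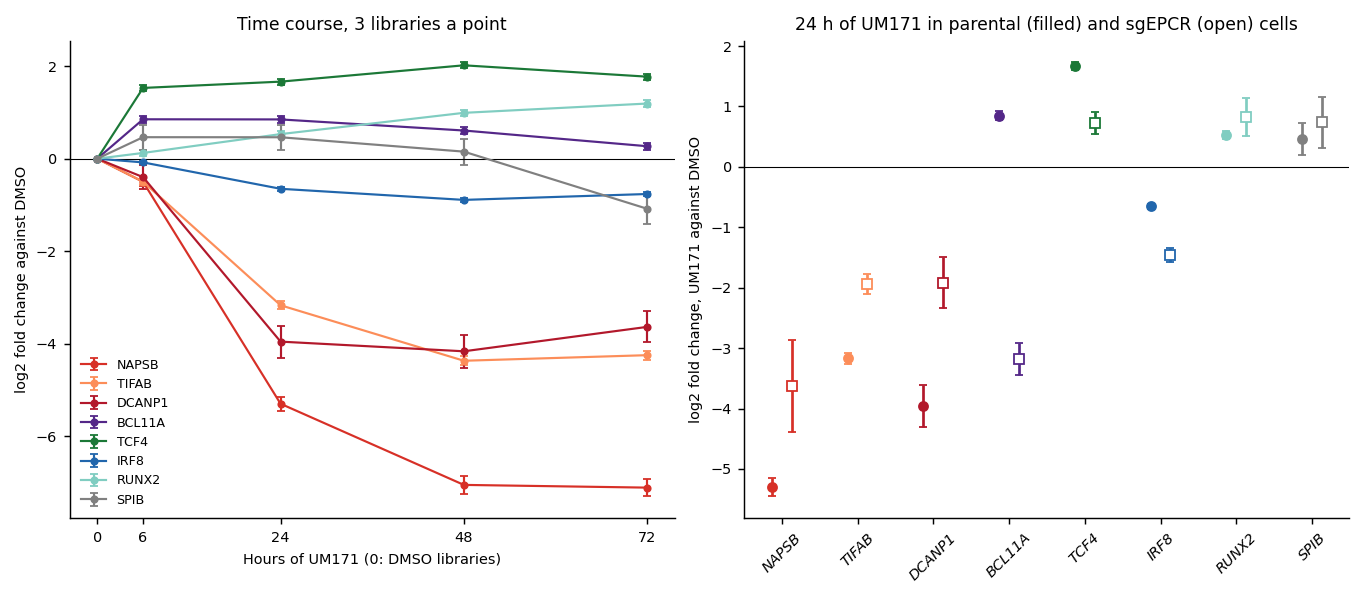
The left panel plots the fitted log2 fold change against DMSO (SE bars, 3 libraries a point) by hours of UM171 for the 8 genes that passed the filter. The right panel sets UM171 24 h against DMSO in parental cells (filled) beside sgEPCR UM171 against sgEPCR DMSO (open squares). The NAPSB, TIFAB and DCANP1 lines are all at -3.17 or below from 24 h on, and BCL11A lies at 0.85 in parental cells but at -3.18 in sgEPCR cells.

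In the steps within the UM171 course, 3 of the 8 genes tested were called lower and 0 were called higher, where a call takes an edgeR adjusted p below 0.05 together with a difference beyond 2-fold. Between 6 h and 24 h the genes were NAPSB, TIFAB and DCANP1, in a background of 11.5% of all tested genes called lower and 4.93% called higher. The same 3 genes were called lower from 6 h to 48 h, against a background of 10.6% lower and 7.77% higher. Calls in either direction made up 16.4% and 18.3% of all tested genes in these steps. TIFAB and DCANP1 share reads and are not separate evidence, and all 3 were chosen for their falls at 72 h. NAPSB passed the filter on low counts mainly through its high DMSO and 6 h libraries and could hardly be called higher. The median log2 difference of the 8 genes was -0.29 by 24 h and -0.56 by 48 h, beside -0.03 and -0.02 over all tested genes. That median includes the 3 genes chosen for their falls, so it is a description of a selected set.

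In the DMSO controls, levels in sgEPCR cells lay below those of parental cells for some of these genes and above them for others. NAPSB stood at 0.50, 2.94 and 3.29 TPM in sgEPCR DMSO, all below the parental DMSO libraries, and the sum of TIFAB and DCANP1 at 27.2, 41.5 and 40.1 CPM. BCL11A was at 25.73, 34.83 and 34.16 TPM and TCF4 at 5.81, 9.12 and 9.40 TPM, all above the parental DMSO libraries, while IRF8 at 76.72, 91.52 and 97.53 TPM and RUNX2 at 5.75, 4.90 and 5.23 TPM were close to them. On the log2 scale of the fit, sgEPCR DMSO differed from DMSO by -2.48 (SE 0.39) for NAPSB, -1.49 (SE 0.12) for the sum, 1.44 (SE 0.19) for BCL11A, 1.32 (SE 0.15) for TCF4, 0.25 (SE 0.07) for IRF8 and 0.11 (SE 0.24) for RUNX2, the last with a sign that depended on the scaling. The 2 control groups differ in labelled time, and a clone can differ from its parent in ways other than EPCR, so these sources cannot be told apart.

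After 24 h of UM171 in sgEPCR cells, 4 of the 7 genes tested other than BCL11A were called lower and 0 higher, in a background of 5.91% of all tested genes called lower and 13.7% called higher, 19.6% in all. BCL11A is left out of this count because its place in the rule may rest on these cells. Those called were NAPSB, TIFAB, DCANP1 and IRF8. The first 3 were chosen for their falls under UM171 in parental cells, and TIFAB and DCANP1 share reads, so these calls are neither unselected nor all separate. The count of 4 was 1 with limma on log2(TPM + 1), 2 with the replicate number as a block and 0 at an adjusted p under 0.0001. NAPSB was at 0.35, 0 and 0.26 TPM in sgEPCR UM171, below all sgEPCR DMSO libraries, and the log2 difference was -3.63 (SE 0.76, edgeR adjusted p 0.0127). It passed the filter on low counts only through sgEPCR DMSO, the group where it is high, and so could hardly be called higher. Its counts summed to 202 in sgEPCR DMSO and 16 in sgEPCR UM171, a depth-scaled ratio of 12.9 (exact 95% interval 7.76 to 23, counting error only). The call was lost without sgEPCR UM171 3 (adjusted p 0.0567), where the fold change was -3.65.

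The TIFAB locus fell as well. TIFAB was at 4.16, 9.79 and 8.83 TPM in sgEPCR DMSO and at 3.04, 1.15 and 2.97 TPM in sgEPCR UM171, and the sum with DCANP1 went to 12.6, 6.66 and 12.8 CPM. The sum fell by 1.93 (SE 0.16), 3.82-fold, with an edgeR adjusted p of 0.000491. DCANP1 taken alone fell by 1.92 (SE 0.42, adjusted p 0.0147), and its call was lost with limma (0.14) and without sgEPCR UM171 1 (0.0594) or sgEPCR DMSO 3 (0.0549).

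IRF8 fell from the sgEPCR DMSO levels above to 37.95, 24.52 and 40.44 TPM, a log2 difference of -1.46 (SE 0.11, edgeR adjusted p 0.000375) and 2.75-fold. The groups did not overlap. TCF4 was at 16.9, 10.37 and 14.41 TPM, again above all sgEPCR DMSO libraries, with a difference of 0.72 (SE 0.19, adjusted p 0.0261) under 2-fold. That difference did not pass with limma (adjusted p 0.356) or with the replicate number as a block (edgeR adjusted p 0.118). It passed with DESeq2 (adjusted p 0.00906) and without both libraries rich in mitochondrial counts (edgeR adjusted p 1.87e-07). RUNX2 was at 11.05, 10.47 and 11.05 TPM, a difference of 0.83 (SE 0.31, adjusted p 0.0813) that did not pass the test with all libraries and was called higher without sgEPCR DMSO 1 (1.15, adjusted p 0.0227). With both libraries rich in mitochondrial counts left out, RUNX2 was higher by 0.90 with an adjusted p of 2.12e-08, under 2-fold. SPIB was at 1.06, 0.55 and 0.63 TPM against 0.04, 0.84 and 0.64 TPM, and the groups overlapped.

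BCL11A showed the sharpest contrast between the genotypes. After 24 h of UM171 it was at 5.02, 4.49 and 4.29 TPM in sgEPCR cells, against 25.73 TPM or more in each sgEPCR DMSO library and 27.65 TPM or more in each parental UM171 24 h library. The difference from sgEPCR DMSO was -3.18 (SE 0.27), 9.04-fold lower, and that from UM171 24 h -2.62 (SE 0.20). The response in sgEPCR cells minus that in parental cells was -4.05 (SE 0.28). No test is given for these values because BCL11A may have been chosen for them.

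With both libraries rich in mitochondrial counts left out, 4 of the 7 genes other than BCL11A were again called lower in sgEPCR cells. That fit called 3767 genes in all, and the limits given above for this count hold here too. The log2 differences were then -3.54 for NAPSB, -1.81 for TIFAB, -1.62 for DCANP1 and -1.42 for IRF8, that of TCF4 was 0.64, and BCL11A, given without a test, was at -3.22. Between UM171-treated cells of both genotypes, 0 of the 7 genes other than BCL11A were called by edgeR, DESeq2 or limma, with 3 at an unadjusted p under 0.05 in edgeR, in a background of 5.51% of tested genes called lower, 8.87% called higher and 14.4% called in all. There NAPSB differed by -0.85 (SE 0.63, edgeR adjusted p 0.297) and the TIFAB and DCANP1 sum by -0.23 (SE 0.12, adjusted p 0.134), neither past the test, and IRF8 was lower by 0.58 (SE 0.07, adjusted p 0.000112), under 2-fold.

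Other dendritic cell genes gave the setting of these changes. Of 64 genes in 3 lists (surface and function of plasmacytoid dendritic cells, regulators, and conventional dendritic cells), 47 passed the filter and were tested against DMSO. The rule had taken the strongest falls at 72 h out of such genes, so what is left of them holds fewer large falls, and the counts and medians below are of that remainder. These lists, too, were drawn up with earlier results of the data known. Some of the 47, GZMB and TLR7 among them, were near 0 counts in DMSO and passed the filter through UM171 libraries. A call of lower was hardly possible for such genes, so the counts of rises and falls are partly set by the filter. At 6 h, 6 were called (6 higher, 0 lower), in a background of 12.5% of all tested genes (11.8% higher, 0.676% lower), and at 24 h 15 (8 higher, 7 lower), in a background of 20% (12.1% higher, 7.88% lower). At 48 h 17 were called (10 higher, 7 lower) against 22.6% (15% higher, 7.58% lower), and at 72 h 17 (12 higher, 5 lower), or 36.2%, against 26.8% (18.7% higher, 8.11% lower). The median log2 fold change of the 47 genes at 72 h was 0.04, beside 0.02 over all tested genes.

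Among genes of the surface and function of plasmacytoid dendritic cells, 5 of 13 rose and 1 fell at 72 h, beside 18.7% higher and 8.11% lower over all tested genes. GZMB and TLR7 passed the filter on low counts through UM171 libraries, so a call of lower was hardly possible for them. GZMB, the protease granzyme B, had 2 counts over the DMSO libraries and 9235 over those of 72 h, a depth-scaled ratio of 4665 (exact 95% interval 1291 to 38528). TLR7, a receptor for single-stranded RNA, had 1 count against 107, a ratio of 108 (interval 19 to 4309), and NRP1 (BDCA-4), a semaphorin coreceptor, rose by 2.64 (SE 0.08, edgeR adjusted p 1.36e-14). LILRB4, an inhibitory receptor, fell by 1.11 (SE 0.04, adjusted p 2.65e-13), from 214.7, 215.63 and 219.77 TPM to 96.73, 101.21 and 104.78 TPM. The other 2 that rose were LAMP5, by 1.52, and IL3RA, the receptor for interleukin 3, by 1.07.

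Of 24 regulators, 2 rose and 3 fell at 72 h, beside the same 18.7% and 8.11% over all tested genes, so neither count stood far from the background. BATF3, a leucine zipper factor of conventional dendritic cells, rose by 2.35 (SE 0.13, edgeR adjusted p 2.11e-11), and ID3, an inhibitor of E proteins, was called higher (adjusted p 0.00178) at a level of at most 1 count in a DMSO library and 3 to 6 in a 72 h library. ID3 passed the filter through UM171 libraries and could hardly be called lower. FLT3, the receptor for the ligand that drives dendritic cell growth, fell by 1.57 (SE 0.08, adjusted p 1.11e-11), CBFA2T3, a corepressor, by 1.06 (SE 0.06, adjusted p 1.71e-11), and SPI1 (PU.1), the ETS factor of myeloid cells, by 1.00 (SE 0.07, adjusted p 1.46e-09), just past the limit of 2-fold. ID2, the opponent of TCF4, was 0.34 higher (SE 0.06, adjusted p 9.32e-05) in parental cells at 72 h, under 2-fold, and rose by 1.60 (SE 0.10, adjusted p 0.000249) in sgEPCR cells at 24 h. These times differ. At 24 h ID2 stood at 87.32, 98.05 and 108.75 TPM in parental cells, from 60.18, 68.96 and 62.77 TPM in DMSO. In sgEPCR cells it went from 17.05, 35.78 and 33.17 TPM in DMSO to 127.01, 66.55 and 133.94 TPM in UM171. The other E proteins TCF3 and TCF12 differed by -0.41 (SE 0.05) and 0.52 (SE 0.04) at 72 h and RUNX1 by -0.07 (SE 0.05), all under 2-fold, and IRF4 stayed at 13 counts or less in the DMSO, 24 h and 72 h libraries.

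Of 10 conventional dendritic cell genes, 5 rose and 1 fell at 72 h, again beside 18.7% and 8.11% over all tested genes. FCER1A and CCR7 passed the filter on low counts through UM171 libraries, so a call of lower was hardly possible for them. FCER1A, a chain of the IgE receptor, went from 4 counts over the DMSO libraries to 123 (ratio 31.1, exact 95% interval 11.8 to 116), and CCR7, a homing receptor of mature dendritic cells, from 5 to 72 (ratio 14.5, interval 5.95 to 46.2). LAMP3, a lysosomal protein of mature dendritic cells, rose by 2.70 (SE 0.21, edgeR adjusted p 2.75e-09). ITGAX (CD11c) and SIGLEC6 also rose, by 1.86 and 1.62. FSCN1, the actin bundler fascin, fell by 1.41 (SE 0.06, adjusted p 1.09e-12). CD1C, a defining marker of conventional dendritic cells, was at 0 counts in the DMSO and 72 h libraries.

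**Figure D4:**
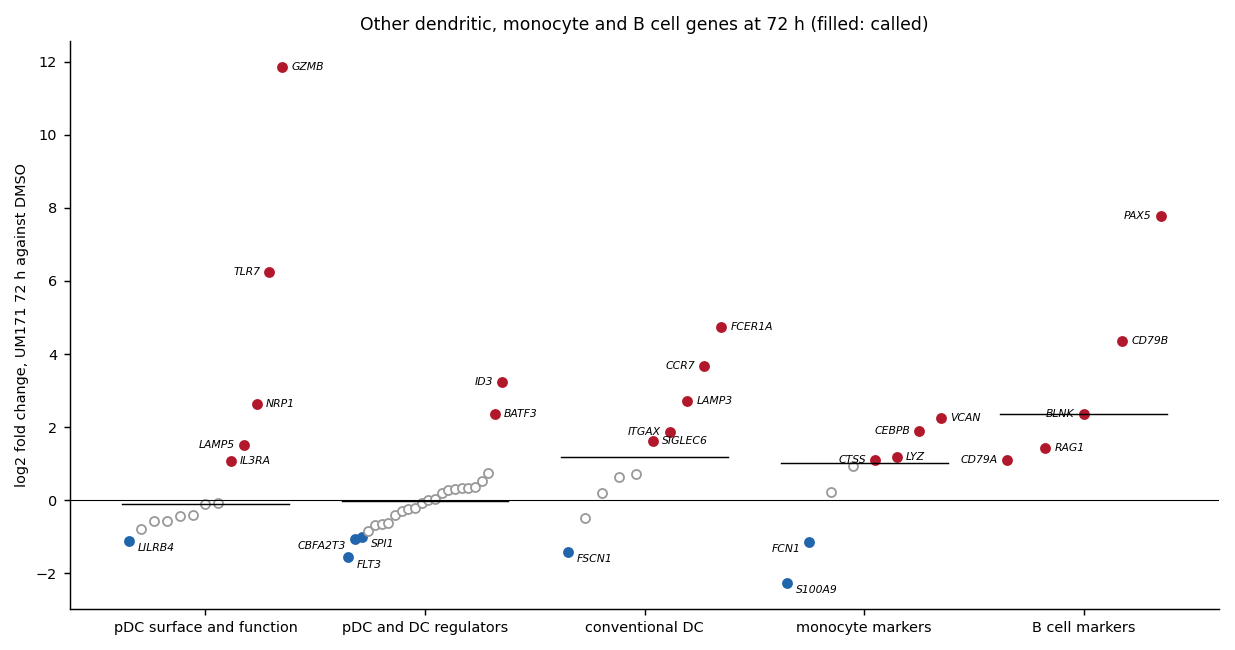
Points are genes that passed the filter, by list, with the fitted log2 fold change of UM171 72 h against DMSO on the vertical axis, filled red where called higher and filled blue where called lower, and with a line at the median of each list. Calls of both directions stand in the 3 dendritic lists and the monocyte list, and GZMB, TLR7 and PAX5 started from 2 counts or fewer over the 3 DMSO libraries. ID3 and BLNK, also called higher, had at most 1 count in any DMSO library.

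Markers of other cell types moved in the same libraries, and their part in the results above was not tested. The background for the counts that follow is 18.7% of all tested genes called higher and 8.11% called lower at 72 h. Of 8 monocyte markers tested, 4 were called higher at 72 h and 2 lower: VCAN rose by 2.24, CEBPB by 1.90, LYZ by 1.19 and CTSS by 1.09 on the log2 scale, while FCN1 fell by 1.13 and S100A9 by 2.27. The summed level of the 12 monocyte markers was 871 to 973 TPM in DMSO and 1975 to 2251 TPM at 72 h. Most of that sum was LYZ alone, at a mean of 717 TPM in DMSO and 1693 TPM at 72 h. CD14, a defining marker of monocytes, had 3 counts over the DMSO libraries and 32 over those of 72 h (depth-scaled ratio 10.8, exact 95% interval 3.37 to 55), and 17 counts at most in any library. All 5 B cell markers tested were called higher at 72 h. Of these, PAX5, CD79B and BLNK passed the filter on low counts through UM171 libraries. A call of lower was hardly possible for them, so the count is partly set by the filter. The summed level of the 10 in the list was 9.78 to 11.1 TPM in DMSO and 24.5 to 27.7 TPM at 72 h. Most of that sum was CD79A, at a mean of 9.67 TPM in DMSO and 21.8 TPM at 72 h. CD79A rose by 1.09 and RAG1 by 1.42. PAX5 had 0 counts in DMSO and 82 over the 72 h libraries (at least 27.6-fold higher, from a floor of 3 counts over the group), CD79B had 7 against 156, BLNK had at most 1 count a DMSO library and 1 to 4 a 72 h library, and MS4A1 was at 0 in both. Of 7 markers of the myeloid line tested, CD34 fell by 2.29 (SE 0.11) and 3 rose, ANPEP by 1.59, IL3RA by 1.07 and CSF2RB by 1.00.

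Over the 21 libraries, the genes most like a member in their log2 CPM were sought among 10921 genes, as a description in which the points share libraries and groups. NAPSB was most like ZSCAN29 (Pearson r = 0.98), EPHX1 (0.97) and ZNF202 (0.97), and TIFAB most like MUC19 (0.98), IL6R (0.98) and NSD1 (0.98). DCANP1 was most like SGF29 (0.93), RUFY1 (0.93) and FAM43A (0.92), and BCL11A most like CHEK2 (0.97), FRMD3 (0.97) and FAM216A (0.96). The likeness is in shape and not in size: ZSCAN29 went from a mean of 5.92 log2 CPM in DMSO to 5.20 at 72 h, whereas IL6R, the interleukin 6 receptor, went from 9.75 to 7.11. Among the members, NAPSB and TIFAB correlated at 0.98, NAPSB and RUNX2 at -0.90, and NAPSB and BCL11A at 0.28.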

How the data were processed

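Poly(A) RNA of 21 libraries was sequenced on stranded libraries. Per the labels and the study's methods, the authors used CASAVA 1.8.2, Trimmomatic 0.35, STAR 2.5.1b and RSEM 1.2.28 with GRCh38, and the annotation release and the strand setting of the counting are not given in the sources used here. The deposited files hold, per gene, RSEM expected counts (estimates that need not be whole), TPM (corrected for length and scaled to the same sum in each library) and a posterior SD of the count, which the authors' RSEM run wrote beside them. TPM was used only for levels, and because it is a share, the 2 libraries rich in mitochondrial RNA have lower TPM for other genes.

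Of the 58219 entries, 45 Y copies of pseudoautosomal genes were added to their X copies. Expected counts were rounded and tested with edgeR 4.0.16 (R 4.3.3) by the quasi-likelihood test, after filterByExpr and TMM scaling, with Benjamini-Hochberg adjustment over all genes of a fit. Genes were called where the adjusted p was below 0.05 and the fold beyond 2. A first fit held the 15 libraries of parental cells (16575 genes), another the 6 sgEPCR libraries (14954 genes), and another the 12 libraries of DMSO, UM171 24 h and both sgEPCR groups (15901 genes). The biological coefficients of variation of the fits were 0.0564, 0.263 and 0.187. The fit was tested on simulated data. Replicates were not duplicates (chi-square per degree of freedom at least 1.65). Intervals of count ratios are exact 95% binomial intervals.

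The members and lists were chosen with earlier results of these data known. Named besides the members were, per list, up to 3 called genes with the largest rise and 3 with the largest fall at 72 h, the partners NAPSA, TIFA, IRF4, ID2, SPI1, TCF3, TCF12 and RUNX1, overlapping genes, defining markers and, for NAPSB, TIFAB, DCANP1 and BCL11A, the 3 genes of highest Pearson correlation. Other genes that complete a small count were chosen after their values were seen. As alternatives, limma 3.58.1 was run on log2 of TPM with 1 added, and DESeq2 1.42.0 on the counts, beside other scalings, filters and limits, a replicate block, leaving out libraries, and summing TIFAB with DCANP1. Scalings of the values against DMSO and a block shared by both genotypes were added after seeing the data. Groups came from the labels, and no library was left out of the main fits.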

Additional observations from a re-analysis of the deposited data

Results flagged for a closer look

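The response of BCL11A to 24 h of UM171 in sgEPCR cells minus that in parental cells was -4.05 on the log2 scale. It was singled out because all 3 sgEPCR UM171 libraries lay below all 3 sgEPCR DMSO libraries, whereas all 3 parental UM171 24 h libraries lay above all 3 parental DMSO libraries, and the difference was not tested. For 3 partners of the members the same difference passed a test of the interaction (edgeR quasi-likelihood, 12 libraries), as it did for 45% of all 15901 genes tested. It was -0.91 for TIFA (adjusted p 0.000949), 0.93 for ID2 (adjusted p 0.000177) and 0.94 for SPI1 (adjusted p 0.00249), all under 2-fold, a limit that 25.9% of the tested genes passed. The controls of both genotypes differ in labelled time, 72 h against 24 h, which cannot be told apart from the genotype here. Groups of 3 libraries were too small for the test of single outlying libraries.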

How the results depend on the processing

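Of 552 settings of tested differences of members, 508 kept direction and side of the threshold, 13 lost and 11 gained a call and 20 turned sign. Of the 64 dendritic list genes, 6 were called at 6 h with edgeR (background 12.5% of all tested genes), but 3 with DESeq2, 3 with no filter on low counts and 2 with limma on log2(TPM + 1). At an adjusted p under 0.0001 the count was 2 (background 7.03%), and with no minimum change 33 (background 62.1%). At 24, 48 and 72 h, limma called 7, 8 and 11 of them. The rule with no minimum change called 38, 43 and 39 of the 47 tested, beside 69.7%, 72.1% and 75.6% of all tested genes. Shares over all genes were not counted for the DESeq2, limma and unfiltered fits against DMSO. Genes called from 6 h to 24 h numbered 2720, and 989 with limma, 1664 with the stricter p and 11126 with no minimum change (67.1% of tested genes). The last rule also called 2 members higher, beside 32.5% of all tested genes higher. By 48 h there were 3037, and 1330, 1991 and 11487, the last with 5 members lower and 2 higher, beside 34.6% and 34.7% of all tested genes.

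In sgEPCR cells, 2927 genes were called between UM171 and DMSO, and 685 with limma. With the stricter p there were 60 (0.401% of tested genes) and with no minimum change 5535 (37%). Of the 7 members tested other than BCL11A, 4 were called lower with edgeR, 1 with limma and 0 with the stricter p. With total count scaling 1 was called higher, as was 1 with no minimum change. At an adjusted p under 0.0001 none of these members passed there with edgeR, against 7.83e-28 for TIFAB with DESeq2. With limma the adjusted p was 0.115 for NAPSB, 0.136 for TIFAB and 0.14 for DCANP1. Leaving out 1 library gave 0 to 1 members called higher, the 1 being RUNX2 without sgEPCR DMSO 1. Between UM171-treated cells of both genotypes 2286 genes were called, and 842 with limma, 709 with the stricter p and 6844 with no minimum change. The last rule called 1 member other than BCL11A lower, beside 22.2% of all tested genes lower.

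Differences near 0 turned sign. Between 6 h and 24 h, BCL11A and SPIB were at 0.0129 and 0.0118 with DESeq2, 0.057 and 0.0606 with no filter, 0.0342 and 0.0348 at 10 or more summed counts, and 0.0048 and 0.0091 in a fit of the 6, 24 and 48 h libraries alone, and ranged from -0.0274 to 0.0703 and -0.1444 to 0.1 with 1 library left out. TCF4 was at -0.0167 there with total count scaling, and at -0.13 between UM171-treated cells with limma. DCANP1 between UM171-treated cells was at -0.23 once summed with TIFAB and ranged from -0.0673 to 0.9707 with 1 library left out. IRF8 at 6 h against DMSO was at 0.0169, 0.104 and 0.1093 with upper quartile scaling, total count scaling and limma, and RUNX2 in sgEPCR DMSO against DMSO at -0.22 and -0.23 with total count scaling and limma. The cause was not tested.

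With the replicate number as a block, 2 members other than BCL11A and 1857 genes were called in sgEPCR cells. The calls of NAPSB (edgeR adjusted p 0.089) and DCANP1 (0.0524) were lost, while the counts of calls within the UM171 course stayed within 1.5 times. Deviations of same-numbered sgEPCR DMSO and UM171 libraries correlated at -0.89, -0.89 and 0.83. The libraries rich in mitochondrial counts, sgEPCR DMSO 1 and sgEPCR UM171 2, carry different numbers and can shape these values. Whether the numbers pair the samples is therefore not settled. For sgEPCR UM171 against UM171 24 h, blocks kept apart by genotype could not be separated from it, and a block of the numbers shared by both genotypes, added after seeing the data, called 2184 genes and 0 members other than BCL11A. Depth limits SPIB, LILRA4, CLEC4C and late NAPSB.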
